A study of Mus musculus with 12 samples.

Results

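Whether GDNF acted differently on gene expression in cells that also received an antibody to NCAM1 was tested as an interaction, over RNA-seq counts from EO771-tdT-LM2 cells, which are mouse breast cancer cells kept as a line. The rule takes all 12 of the 12 libraries, in 4 groups of 3, and needs no measured value to choose them. For each gene the interaction is the log2 effect of GDNF in cells with the antibody, minus the log2 effect of GDNF in cells with IgG. A positive value means that the GDNF effect was higher with anti-NCAM1 and a negative value that it was lower.

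In 3 cultures the cells received GDNF at 0.2 µg/mL and anti-NCAM1 at 2.5 µg/mL. In 3 cultures they received 2.5 µg/mL of anti-NCAM1 with 0.1% BSA, the GDNF vehicle. In 3 cultures they received 0.2 µg/mL of GDNF with 2.5 µg/mL of IgG, and the 3 control cultures received 0.1% BSA with that IgG. The cells of every group were wild type and stood in glucose-deprived medium (10 mg/dl glucose, 1% FBS), for 30 minutes before plating and for the 24 hours of treatment. There is thus no culture in full glucose and none without an added immunoglobulin. The cultures are of 1 cell line, and the labels call those of a group triplicates without saying whether they were separate experiments, so the p-values measure only the spread between these cultures.

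GDNF is a secreted growth factor best known for its part in the survival of neurons and the growth of axons. It binds the anchored receptor GFRA1 and signals through the receptor tyrosine kinase RET. In neurons and glia, NCAM1, an adhesion molecule of the immunoglobulin superfamily, can take the place of RET together with GFRA1 and pass the signal to the kinase FYN. An antibody to NCAM1 is therefore a way to ask how much of a response to GDNF passes through that receptor.

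Libraries held 5616398 to 8093754 counts, and a gene with 3 counts in one of them stands at 0.371 to 0.534 CPM (counts divided by the library total, on the usual per-million scale). Of all genes, 11332 passed the filter on low counts. GDNF replicate 3 stood apart from the other 11 libraries. Mitochondrially encoded transcripts held 10.2% of its counts and 4.11 to 5.29% elsewhere, and the most abundant gene ID of the table, which has no symbol, held 0.543% there and 3.79 to 9.85% elsewhere. The overall counts, the lists and many of the genes for which this library is extreme are also given without it. Of 12 mammary markers only Krt8 (465 to 595 CPM), Erbb2 (17.0 to 29.0), Epcam (12.3 to 18.3) and Krt14 (1.5 to 2.82) had enough counts to be tested. Krt18, Gata3, Foxa1 and Esr1 had at most 1, 2, 1 and 3 counts in any library, and Pgr, Krt5, Trp63 and Elf5 had 0 in all. Leukocyte markers summed to 12.6 to 13.2 CPM with GDNF plus anti-NCAM1 and 12.1 to 13.5 with anti-NCAM1. They summed to 9.86 to 11.5 CPM with GDNF and 10.5 to 13.3 in control. Of these markers Cd68 had 38 to 53 counts in a library, Cd79a 16 to 35, Lyz2 6 to 18 and Cd14 2 to 9. Ptprc, Cd3e, Itgam and Csf1r had at most 1 count in any library, and Adgre1, Fcgr3, Tyrobp and Laptm5 had 0 in all.

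The receptors of GDNF had few counts in these cells. Gfra1 had 2, 2 and 0 counts with GDNF plus anti-NCAM1, 2, 0 and 2 with anti-NCAM1, 0, 1 and 4 with GDNF, and 0, 1 and 1 in control. Over the 12 libraries this is 0.182 CPM (95% Poisson interval 0.102 to 0.30, counting error only). Ret had at most 2 counts in a library, or 0.0850 CPM when the 12 are pooled (0.0342 to 0.175), and neither gene could be tested. The transcript of the antibody's target was present at a low level, and its protein was not measured.

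Ncam1 had 7.95, 9.62 and 8.34 normalised CPM with GDNF plus anti-NCAM1 and 7.75, 9.33 and 9.58 with anti-NCAM1. It had 6.66, 10.7 and 8.83 with GDNF and 7.69, 11.9 and 7.93 in control. All 4 groups overlapped, and the interaction was 0.03 (SE 0.30), with a 95% interval of -0.60 to 0.66 (edgeR quasi-likelihood test, Benjamini-Hochberg adjusted p = 0.962). Its sign turned under 6 of the 26 alternative settings. Fyn, the kinase downstream of NCAM1, stood at 72.4 to 87.8 CPM with GDNF plus anti-NCAM1, 78.3 to 86.1 with anti-NCAM1, 74.8 to 91.0 with GDNF and 75.7 to 83.6 in control. Its interaction was -0.01 (SE 0.13, 95% interval -0.29 to 0.26) and also turned sign under 7 settings.

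The cells' own Gdnf transcript was low but measurable. It had 11.2, 13.3 and 13.0 CPM with GDNF plus anti-NCAM1, against 9.92, 11.3 and 10.6 with anti-NCAM1. It had 11.7, 10.1 and 11.6 CPM with GDNF, against 14.9, 12.1 and 14.9 in control. Added GDNF thus went with a higher mean in the antibody arm, where the groups overlapped, and with a lower one in the IgG arm, where they did not. The interaction of 0.55 (SE 0.21, 95% interval 0.11 to 0.99) did not pass in edgeR (adjusted p = 0.247), kept its sign under all 26 alternatives and passed under 1 of them. Fgfr1, a growth factor receptor that NCAM1 can bind, had an interaction of 0.26 (SE 0.11) that did not pass either (edgeR adjusted p = 0.263).

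Across all genes, no interaction passed the threshold. At an adjusted p under 0.05 edgeR called 0 of 11332 genes (0%), DESeq2 called 0 and limma-voom called 0, and the smallest edgeR adjusted p was 0.240. The count rested on single libraries of the GDNF group, since edgeR called 1887 genes without GDNF replicate 1, 14 without replicate 3 and 0 without replicate 2. It was 403 with no filter on low counts and 2425 in limma-voom with sample quality weights. At an unadjusted p under 0.05 the counts were 1900 genes (16.8%) in edgeR, 888 higher (7.84%) and 1012 lower (8.93%), with 1650 in DESeq2 and 1960 in limma-voom. The median interaction was -0.01 and the median standard error 0.18 on the log2 scale. An absolute interaction above 1 was measured in 201 genes (1.77%).

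Each of the 2 GDNF effects behind the contrast was also below the threshold. In the antibody arm edgeR called 0 genes (0%) for GDNF, with 284 at an unadjusted p under 0.05 (2.51%; 1.26% higher and 1.24% lower) and a smallest adjusted p of 0.999. In the IgG arm it called 0 genes (0%), with 2303 at an unadjusted p under 0.05 (20.3%; 11.6% higher and 8.70% lower) and a smallest adjusted p of 0.165. The effects varied less across genes in the antibody arm, with a standard deviation of 0.19, than in the IgG arm, where it was 0.27. The gap between the arms changed in size with the GDNF library left out, and the IgG arm kept the larger unadjusted count in each of these refits. Without GDNF replicate 3 the unadjusted counts were 712 in the antibody arm and 1319 in the IgG arm, with 0 called in each, and the standard deviations 0.19 and 0.22. Without GDNF replicate 1 the unadjusted counts were 427 and 4298, and edgeR called 0 genes in the antibody arm and 2714 in the IgG arm. Without GDNF replicate 2 the unadjusted counts were 275 and 2018, with 0 called in each. With the GC and length trend removed and GDNF replicate 3 left out they were 721 and 840, with 0 and 1 called. The libraries of the antibody arm are the same in these refits, and the fit shares 1 estimate of the spread over all groups.

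The 2 arms share no library, and their GDNF effects ran opposite in sign in 65.1% of the genes. Across genes the effects correlated at Pearson r = -0.206 and Spearman rho = -0.331. This is a description over 11332 genes, which are not independent and which share the GC content described further on. Of the 1900 genes at an unadjusted p under 0.05, 1641 (86.4%) had the larger effect in the IgG arm, against 69.4% of all genes. Without GDNF replicate 3 the opposite signs were 62.2%, rho was -0.263 and the larger effect lay in the IgG arm in 58.9% of all genes. With the GC and length trend removed these were 55.6%, -0.123 and 61.3%, and with that library left out as well 53.8%, -0.074 and 53.6%.

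**Figure D1:**
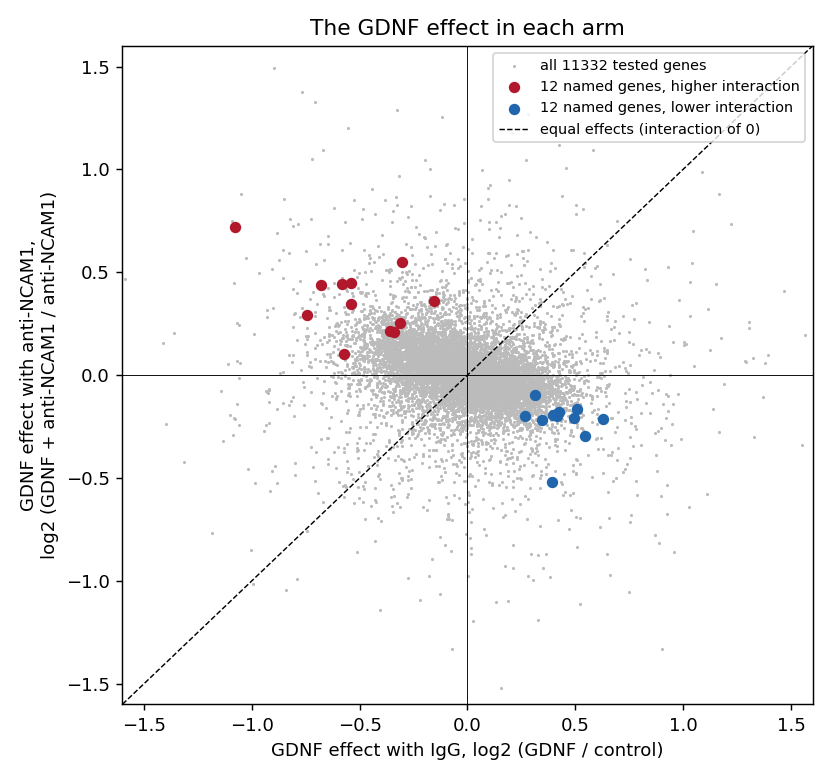
Each point is a gene, with the log2 effect of GDNF with IgG (GDNF over control) on the x axis and with anti-NCAM1 (GDNF plus anti-NCAM1 over anti-NCAM1) on the y axis. The cloud leans against the dashed line of equal effects (Spearman rho = -0.331), the 12 genes with the smallest p for a higher interaction lie at the upper left, and the 12 for a lower one lie at the lower right. The 9 genes beyond 1.6 on either axis are not drawn.

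The pattern can be followed in single cultures by asking for genes whose GDNF cultures all lay on one side of their reference cultures in one arm and all on the other side in the other arm. There were 225 such genes (1.99%). Of these, 95 (0.838%) were higher with GDNF under the antibody and lower with GDNF under IgG, and 130 (1.15%) were the reverse. Another 26 genes (0.229%) were separated in the same direction in both arms. Without GDNF replicate 3, where fewer libraries have to be separated, the counts were 289 and 66.

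The genes with the smallest p in each direction were named by rule, and none of the 24 passed (edgeR adjusted p = 0.240 for each). They were chosen by the interaction, so their values describe it and do not support it. None changed sign under the 26 alternatives, and 16 of them were separated in opposite directions in the 2 arms, 8 in each direction. Their sizes did change: with the trend on GC content and length removed from each library, 18 of the 24 moved by over 1.5 times towards 0, and the interaction kept 18.8 to 85.6% of its size, with a median of 58.8%.

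Crocc, which encodes rootletin, the protein of the ciliary rootlet and centrosome linker, had the smallest p. It had 37.3, 37.1 and 37.5 CPM with GDNF plus anti-NCAM1, against 23.4, 29.4 and 23.5 with anti-NCAM1. It had 31.3, 25.3 and 28.4 CPM with GDNF, against 32.7, 38.9 and 33.1 in control. The groups did not overlap in either arm, and the interaction was 0.85 (SE 0.17, 95% interval 0.50 to 1.20). Crocc was lower in every culture with 1 agent than in every culture with both agents or with neither. With the trend removed its interaction was 0.31.

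Mfsd3, a member of the major facilitator family of membrane transporters, had the largest interaction of the 24 at 1.80 (SE 0.37, 95% interval 1.02 to 2.59), on few counts; it was 1.51 without GDNF replicate 3 and 1.54 with the trend removed. It had 8.10, 6.12 and 7.56 CPM with GDNF plus anti-NCAM1 and 3.57, 5.09 and 4.55 with anti-NCAM1. It had 4.49, 3.13 and 1.79 CPM with GDNF and 6.38, 7.19 and 6.12 in control.

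Sipa1l3, a relative of the Rap regulator SIPA1, had 90.7, 91.0 and 91.2 CPM with GDNF plus anti-NCAM1, against 68.5, 76.9 and 66.9 with anti-NCAM1. It had 85.3, 72.6 and 87.8 CPM with GDNF, against 88.2, 93.6 and 91.5 in control. The cultures with anti-NCAM1 alone overlapped those with GDNF alone and lay below the control and the combined cultures, and the interaction was 0.51 (SE 0.12), or 0.11 with the trend removed.

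A further 8 genes with a higher interaction ranged from 0.55 to 1.12. Kmt2d, a histone H3 lysine 4 methyltransferase, stood at 0.55 (SE 0.13) and Inf2, a formin that assembles actin, at 0.57 (SE 0.14). Gramd4 was at 0.57 (SE 0.14). Parp10, a mono-ADP-ribosyltransferase, was at 1.03 (SE 0.24), and Sars2, the seryl-tRNA synthetase of mitochondria, at 1.02 (SE 0.25). Tpgs1, a subunit of the tubulin polyglutamylase complex, was at 1.12 (SE 0.27), Pcnx3 at 0.88 (SE 0.21) and Zbtb40, a zinc finger protein, at 0.67 (SE 0.15). Without GDNF replicate 3 these 8 ranged from 0.47 in Gramd4 to 1.07 in Sars2, with Parp10 at 0.85 and Pcnx3 at 0.72. With the trend removed they ranged from 0.10 in Kmt2d and 0.16 in Inf2 to 0.72 in Parp10.

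Among the genes with a lower interaction, Rpl36a, a protein of the large ribosomal subunit, had the smallest p. It had 591, 597 and 597 CPM with GDNF plus anti-NCAM1, against 663, 635 and 723 with anti-NCAM1. It had 622, 737 and 839 CPM with GDNF, against 534, 534 and 568 in control. Every culture with a single agent lay above every culture with both or with neither, and the interaction was -0.60 (SE 0.13, 95% interval -0.87 to -0.33). It was -0.49 without GDNF replicate 3 and -0.42 with the trend removed.

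Snrpd1, a core Sm protein of the spliceosome, showed the mirror image of Crocc in the same way. It had 90.6, 93.0 and 95.5 CPM with GDNF plus anti-NCAM1, against 108, 100 and 115 with anti-NCAM1. It had 97.0, 118 and 142 CPM with GDNF, against 85.9, 75.3 and 92.5 in control. The groups did not overlap in either arm, and the interaction was -0.70 (SE 0.16), or -0.54 without GDNF replicate 3 and -0.36 with the trend removed.

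Ube2v2, a ubiquitin-conjugating enzyme variant, had 33.4, 32.0 and 34.1 CPM with GDNF plus anti-NCAM1, against 40.5, 34.2 and 39.5 with anti-NCAM1. It had 38.7, 38.7 and 40.3 CPM with GDNF, against 28, 29.8 and 31.6 in control. Here GDNF replicate 3 lay close to the other GDNF cultures, and the interaction was -0.59 (SE 0.14), or -0.27 with the trend removed.

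The other 9 genes with a lower interaction ranged from -0.91 to -0.41. Mmd stood at -0.91 (SE 0.22), and Rpf2, which loads the 5S particle onto the assembling ribosome, at -0.84 (SE 0.20). The zinc finger genes Zfp930 and Zfp979 were at -0.84 (SE 0.20) and -0.67 (SE 0.16). Gpx8, a peroxidase of the endoplasmic reticulum, was at -0.61 (SE 0.15), Cep57, a centrosome protein, at -0.60 (SE 0.14) and Lactb2, a ribonuclease of mitochondria, at -0.56 (SE 0.14). Rpl30, of the large ribosomal subunit, was at -0.46 (SE 0.11) and the chromatin protein Hmgb2 at -0.41 (SE 0.10). Without GDNF replicate 3 these 9 ranged from -0.87 in Mmd to -0.35 in Hmgb2, with Rpf2 at -0.59 and Zfp930 at -0.62. With the trend removed they ranged from -0.75 in Mmd to -0.17 in Rpl30 and -0.13 in Hmgb2.

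**Figure D2:**
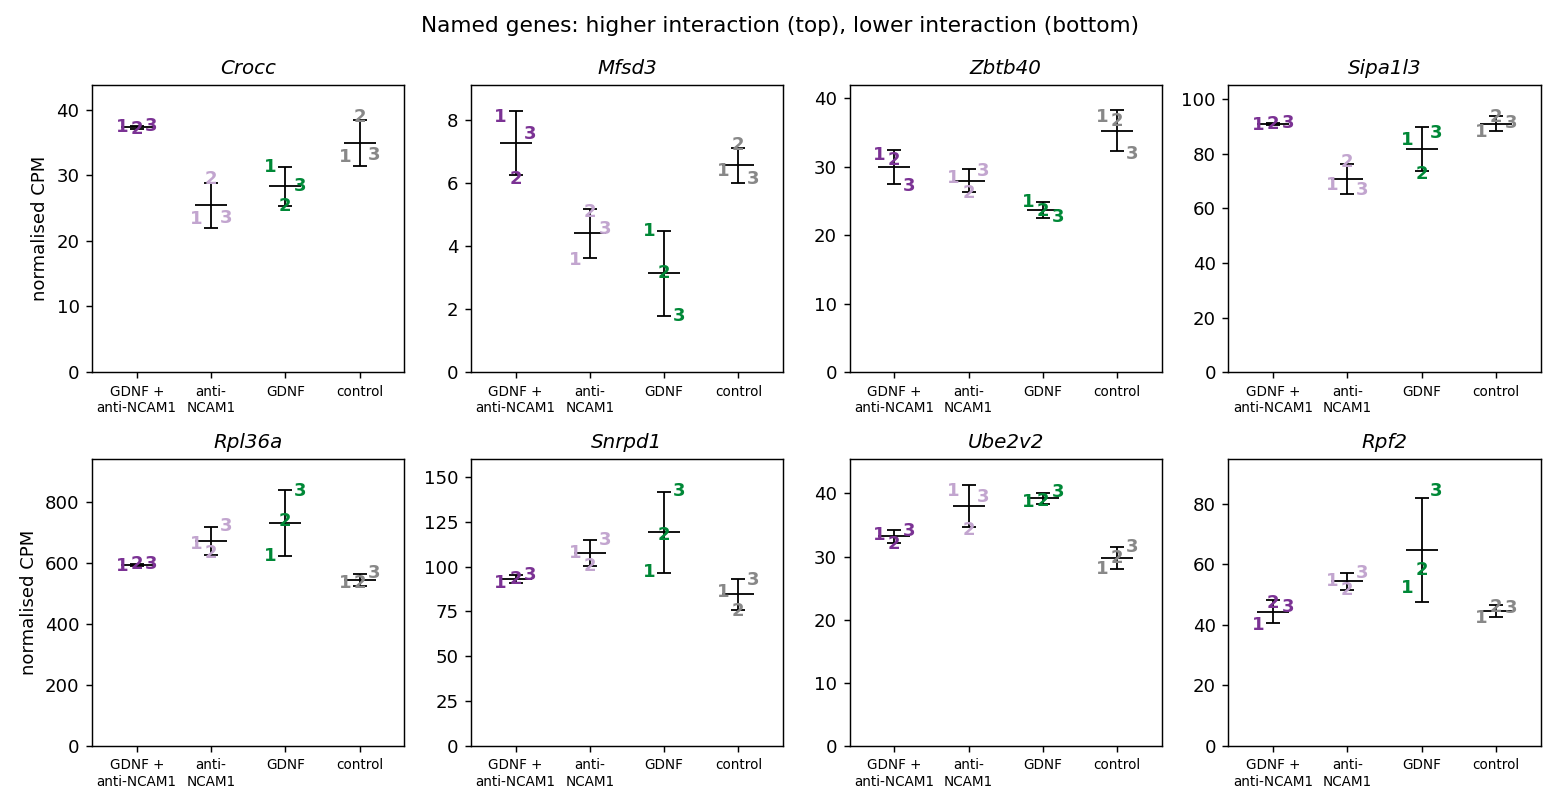
Normalised CPM of 4 named genes with a higher interaction (upper row) and 4 with a lower one (lower row), a panel each, for the 4 groups from left to right. Each digit is a library by its replicate number, the long line is the group mean and the bar 1 SD (n = 3). In the upper panels the outer groups (both agents, neither) lie above the inner ones, except that Zbtb40 differs little in the antibody arm, and in the lower panels the inner groups lie above the outer ones.

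The contrast reads equally well as the antibody's effect with GDNF minus its effect without. With GDNF edgeR called 0 genes for the antibody (0%), with 1582 at an unadjusted p under 0.05 (14.0%), of which 6.15% of all genes were higher and 7.81% lower. Without GDNF it called 0 (0%), with 599 at an unadjusted p under 0.05 (5.29%), 2.61% higher and 2.67% lower. For Crocc the antibody effect was 0.40 (SE 0.12) with GDNF and -0.45 (SE 0.12) without, and for Rpl36a -0.30 (SE 0.09) and 0.30 (SE 0.09). The 24 named genes all had antibody effects of opposite sign, as they had GDNF effects of opposite sign, which for genes chosen by the difference carries no further weight.

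GC content of the transcript moved with the interaction. With the genes cut into 10 bins of equal size by GC content, the median interaction was 0.39 in the highest bin (57.7 to 78.3% GC) and -0.28 in the lowest (29.6 to 41.1% GC), and it was higher in each bin than in the one below. In the lowest bin 4 genes were higher and 354 lower at an unadjusted p under 0.05, and in the highest 333 were higher and 7 lower. Across 11313 genes with a transcript in the GENCODE reference, Spearman rho with GC content was 0.625, and with transcript length -0.01.

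The relation ran in opposite directions in the 2 arms. Across genes the GDNF effect was higher at higher GC content in the antibody arm (rho = 0.361) and lower in the IgG arm (rho = -0.629). The 12 named genes with a higher interaction had a median GC content of 58.6% and the 12 with a lower one 41.2%, against 49.6% for all tested genes.

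Each library has its own slope on GC content, and the slopes differed within groups. In log2 units per 10 points of GC the slope was 0.07, 0.05 and 0.06 with GDNF plus anti-NCAM1, and -0.08, 0.09 and -0.09 with anti-NCAM1. It was 0.08, -0.16 and -0.34 with GDNF and 0.08, 0.12 and 0.12 in control. GDNF replicate 1 and anti-NCAM1 replicate 2 thus had slopes like the control libraries, and the other 2 libraries of each single-agent group had slopes of the opposite sign. Without GDNF replicate 3 the median interaction was -0.20 in the lowest bin and 0.27 in the highest. With the trend on GC content and length removed from each library these were -0.03 and 0.03, and edgeR called 0 genes, with 904 at an unadjusted p under 0.05. Bin medians near 0 follow from that removal itself, which would also take out any effect of treatment that ran with GC content. The named genes' values with the trend removed are given above, singly or as ranges.

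**Figure D3:**
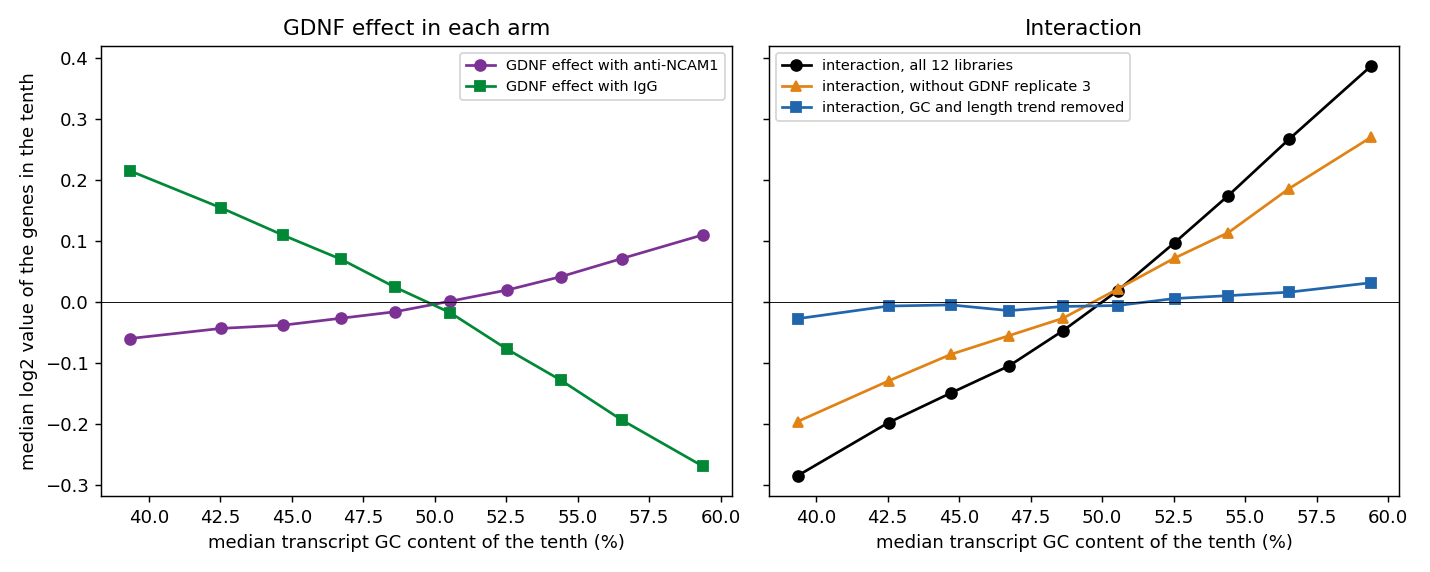
Median log2 value of the genes in each of 10 bins of transcript GC content, plotted at the bin's median GC. On the left, the GDNF effect climbs with GC content with anti-NCAM1 (-0.06 to 0.11) and declines with IgG (0.22 to -0.27). On the right, the interaction climbs in all 12 libraries (-0.28 to 0.39), less steeply without GDNF replicate 3 (-0.20 to 0.27), and little once the trend is removed (-0.03 to 0.03). The last follows from the removal itself.

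Gene lists for the pathways these cells and agents could touch held 0 genes past the threshold each, and are described by their tested members. Over all tested genes 48.9% lay above 0 and 51.1% below, with a median of -0.01. In bulk RNA, fewer cells in a state and less RNA per cell cannot be told apart. Medians are of log2 interactions, and each is followed by its value without GDNF replicate 3 and with the GC and length trend removed.

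Of the list of GDNF receptors, ligands and NCAM1 partners, 16 of 32 members were tested and 9 had 0 counts in all libraries. Of the 16, 10 lay above 0 and 6 below, with a median of 0.13 (0.13 and 0.04). At an unadjusted p under 0.05, 3 were higher (Src, Gdnf and Fgfr1) and 0 lower, against 7.84% and 8.93% of all genes. With the trend removed and GDNF replicate 3 left out, 1 was higher and 0 lower, against 3.94% and 4.56%. With only the trend removed the interaction of Gdnf was 0.50 and that of Fgfr1 0.01. Src, a kinase of the FYN family, had 108, 114 and 111 CPM with GDNF plus anti-NCAM1, against 90.1, 117 and 91.4 with anti-NCAM1. It had 108, 90.9 and 62.8 CPM with GDNF, against 110, 113 and 117 in control. The groups overlapped in the antibody arm and were separated in the IgG arm, where replicate 3 was lowest. Its interaction of 0.53 (SE 0.20) was 0.35 without that library and 0.18 with the trend removed.

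The ERK pathway, which RET and NCAM1 both feed, had list medians above 0 with all libraries. Early genes induced by ERK lay above 0 in 18 of 26, with a median of 0.12 (0.21 and -0.01). With the trend removed and GDNF replicate 3 left out, 22 of the 26 lay above 0, with a median of 0.11. Feedback regulators lay above 0 in 13 of 18, with a median of 0.20 (0.17 and 0.02), and with both changes in 11 of 18, with a median of 0.05. Srf, a transcription factor of early genes, had the smallest p of the first list at 0.48 (SE 0.15), with 59.98, 54.6 and 64.7 CPM with GDNF plus anti-NCAM1 and 52.4, 56.8 and 52.6 with anti-NCAM1. Its groups overlapped there, and they overlapped in the IgG arm, with 60.8, 47.2 and 48.7 CPM with GDNF and 67.1, 71.8 and 59.2 in control. With the trend removed the interaction of Srf was -0.03. Glycolysis and glucose uptake genes lay above 0 in 20 of 27, with a median of 0.13 (0.06 and 0.04), and with both changes 13 lay above 0 and 14 below, with a median of -0.02. Slc2a1, the main glucose transporter of growing cells, was at 0.39 (SE 0.13), with 168 to 178 CPM with GDNF plus anti-NCAM1 above 150 to 164 with anti-NCAM1, and 130 to 175 with GDNF overlapping 168 to 180 in control.

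The lists farthest above 0 were axon guidance (18 of 19 above, median 0.36; 0.23 and 0.07), NF-kB and chemokines (14 of 15, 0.34; 0.21 and 0.14), antigen presentation (11 of 16, 0.30; 0.14 and 0.13) and matrix and basement membrane (19 of 26, 0.24; 0.16 and -0.01). Their median GC contents were 56.9, 55.4, 52.6 and 54.1%. The matrix median turned sign with the trend removed, and with GDNF replicate 3 left out as well the medians of the 4 lists were 0.03, 0.21, 0.04 and -0.00047. Plxna1, a semaphorin receptor, had 178, 182 and 175 CPM with GDNF plus anti-NCAM1 and 157, 172 and 146 with anti-NCAM1. It had 184, 153 and 146 CPM with GDNF and 186, 199 and 192 in control, and its groups did not overlap in either arm (interaction 0.43, SE 0.12; 0.09 with the trend removed). Lama5, a laminin chain of basement membranes, had 209, 209 and 199 CPM with GDNF plus anti-NCAM1 and 166, 193 and 165 with anti-NCAM1. It had 214, 162 and 126 CPM with GDNF and 220, 229 and 225 in control, again without overlap (interaction 0.66, SE 0.18; 0.50 without GDNF replicate 3 and 0.23 with the trend removed). Fibroblast markers, which include collagens also in the matrix list, summed to 796 to 824 CPM with GDNF plus anti-NCAM1, 731 to 860 with anti-NCAM1, 681 to 804 with GDNF and 825 to 904 in control. Of their 12 members 5 were tested, and 3 were above 0. The 5 were Pdgfra (214 to 238 CPM), Col1a1 (229 to 369), Col3a1 (131 to 186), Pdpn (56.1 to 72.0) and Pdgfrb (36.2 to 50.1). Col1a2, Dcn and Thy1 had at most 1 count in any library, Dpt had 2 to 7, and Lum, Fap and Postn were at 0 in all libraries. The part of these markers in the matrix result was not tested.

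The lists farthest below 0 were mitochondrially encoded mRNAs (9 of 10 below, median -0.87; -0.37 and -0.43), mitosis and spindle (39 of 44, -0.26; -0.14 and -0.16), epithelial markers (6 of 8, -0.23; -0.01 and -0.25) and cytosolic heat shock chaperones (17 of 21, -0.19; -0.07 and -0.12). Their median GC contents were 37.4, 45.6, 52.0 and 47.2%. Epcam, an epithelial adhesion molecule, had 14.5, 12.1 and 13.9 CPM with GDNF plus anti-NCAM1, against 18.1, 17.1 and 15.8 with anti-NCAM1. It had 18.2, 15.9 and 18.3 CPM with GDNF, against 14.2, 13.5 and 13.2 in control. The groups did not overlap in either arm, and the interaction was -0.69 (SE 0.18), or -0.65 without GDNF replicate 3 and -0.78 with the trend removed. The median of the epithelial list turned sign under 1 of the 26 alternatives, to 0.12 with sample quality weights, and 9 of its 23 members were at 0 in all libraries. mt-Nd2, a subunit of respiratory complex I, had 4032, 3895 and 4069 CPM with GDNF plus anti-NCAM1 and 4476, 3815 and 4953 with anti-NCAM1. It had 4296, 5606 and 12789 CPM with GDNF and 3947, 3823 and 3966 in control, and its interaction of -1.09 (SE 0.36) was -0.47 without GDNF replicate 3. With the trend removed and that library left out, the list's median was -0.03. Kif20b, a kinesin of cell division, had 86.5, 95.1 and 96.9 CPM with GDNF plus anti-NCAM1 and 101, 93.3 and 105 with anti-NCAM1. It had 91.4, 115 and 167 CPM with GDNF and 78.5, 83.0 and 88.5 in control, separated only in the IgG arm (interaction -0.68, SE 0.21; -0.40 without GDNF replicate 3 and -0.43 with the trend removed).

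**Figure D4:**
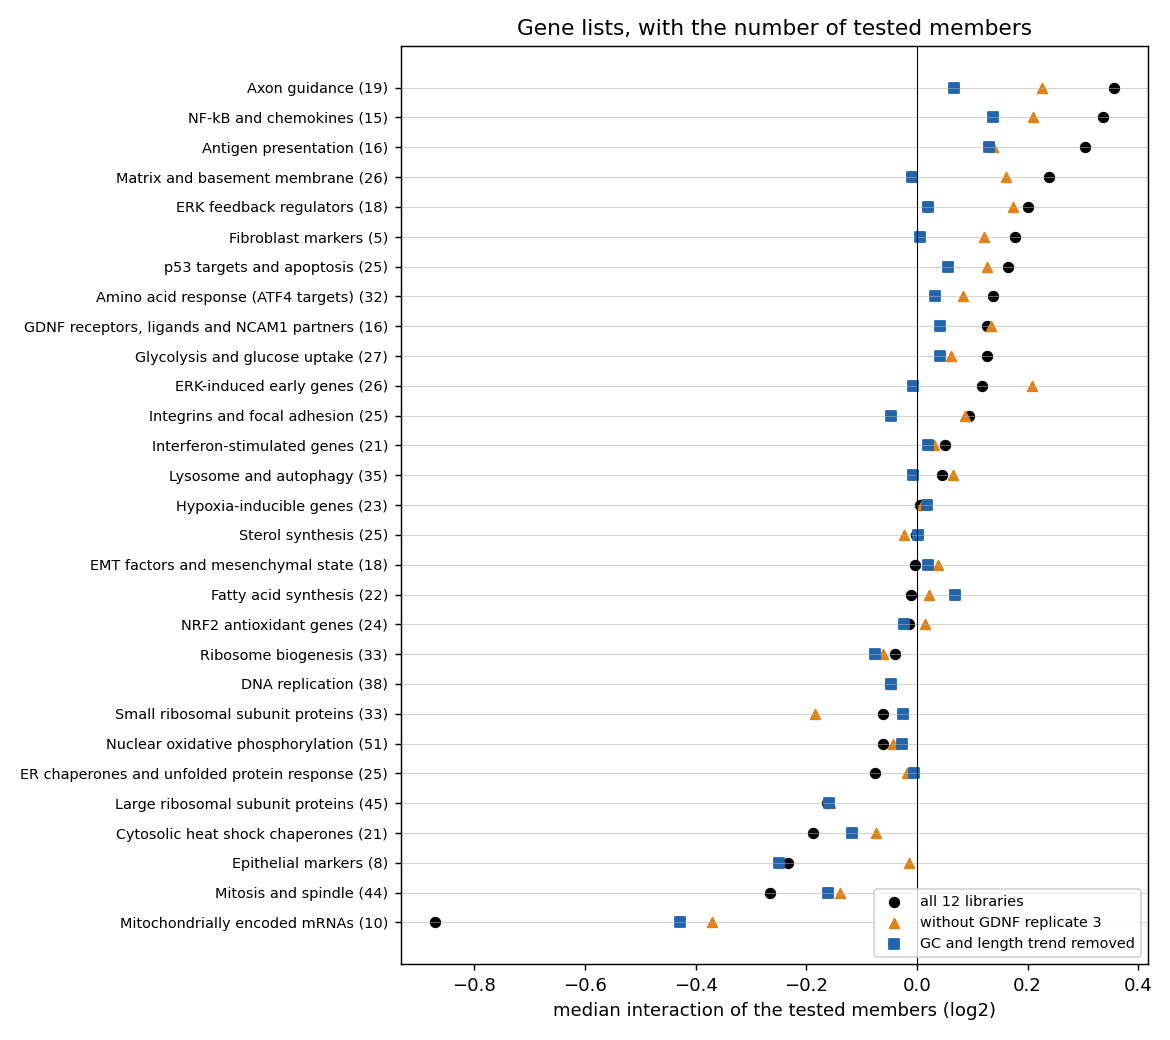
Median interaction (log2) of the tested members of 29 gene lists, with the number of members in brackets, for all 12 libraries, without GDNF replicate 3, and with the GC content and length trend removed. Axon guidance (0.36) and mitochondrially encoded mRNAs (-0.87) lie at the ends with all libraries. Both lie nearer 0 under the other 2 settings, while the large ribosomal subunit proteins stay at -0.16 in all 3.

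**Figure D5:**
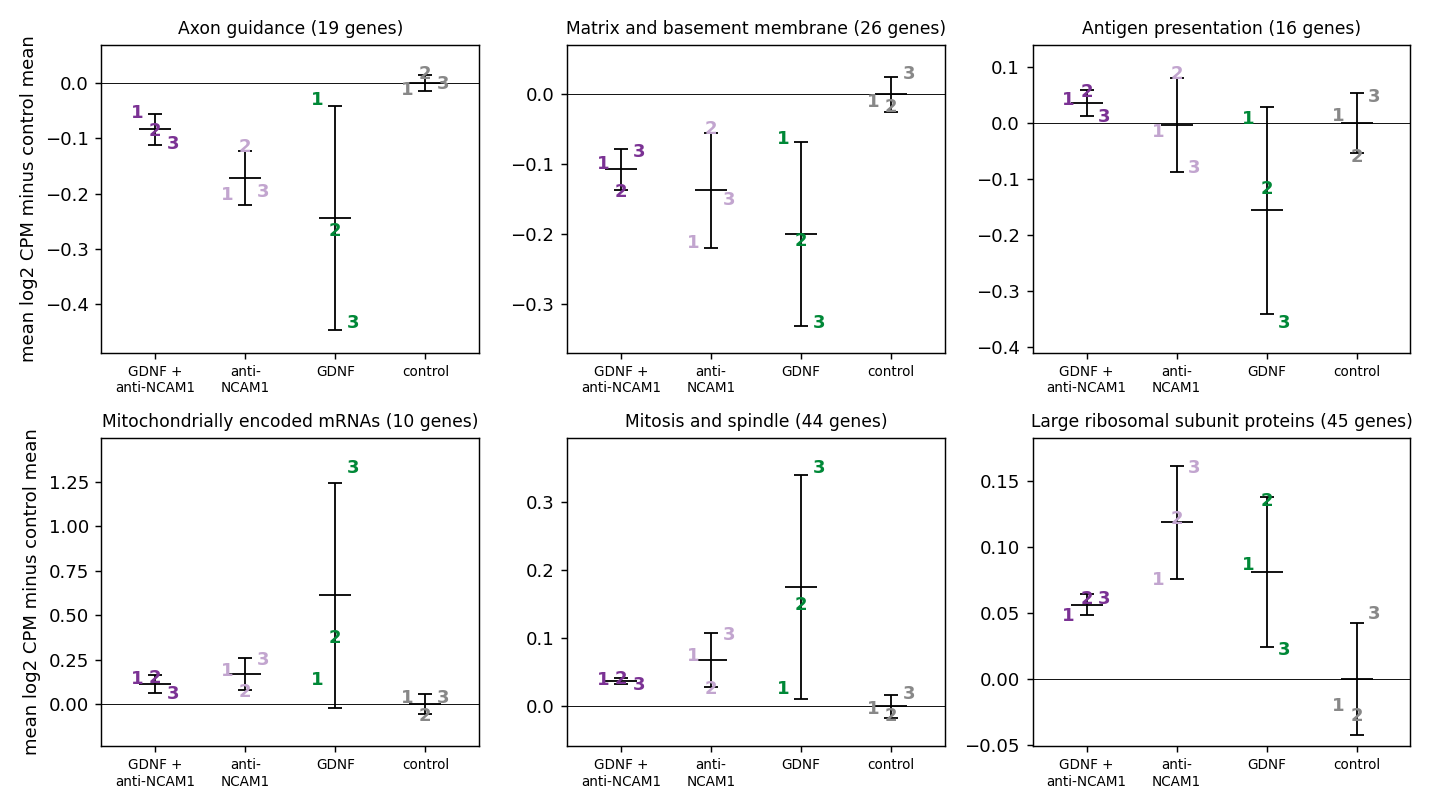
Level of 6 gene lists in each library, as the mean over members of log2 CPM minus the control mean, for the 4 groups from left to right. Digits are replicate numbers, long lines are means and bars 1 SD (n = 3). GDNF replicate 3 is the extreme library in 5 of the 6 panels. In the panel of large ribosomal subunit proteins it lies below the other GDNF libraries.

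Genes for the proteins of the ribosome, which are among the most abundant messages of a growing cell, lay mostly below 0 with all libraries, without replicate 3 and with the trend removed. Of 78 tested members of both subunits 54 (69.2%) lay below 0, against 51.1% of all genes, and 25 (32.1%) were lower at an unadjusted p under 0.05, against 8.93%, with 0 higher. None passed in edgeR with all libraries and the low-count filter. All genes are not matched to these in abundance or standard error, which also sets how often p falls under 0.05. The large subunit had 33 of 45 below 0 with a median of -0.16 (-0.16 and -0.16), and the small subunit 21 of 33 with a median of -0.06 (-0.18 and -0.02). The median of the small subunit turned sign, to 0.01, without GDNF replicate 2, and 17 of its 33 members lay below 0 with the trend removed. The median GC contents were 52.0 and 50.6%. Over the 26 alternatives, 45 to 63 of the members lay below 0, while the share of all genes below 0 stayed between 48.1 and 51.2%. Some alternatives called members in both directions. With sample quality weights 38 members were called lower and 8 higher, against 1182 and 1243 of all 11332 genes. Without GDNF replicate 1 these were 23 and 3, against 905 and 982. With no low-count filter they were 11 and 1, against 185 and 218 of 22404 genes.

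The joint level of the 78 genes, as mean log2 CPM minus the control mean, was 0.03, 0.06 and 0.05 with GDNF plus anti-NCAM1 and 0.06, 0.12 and 0.15 with anti-NCAM1. It was 0.09, 0.12 and -0.05 with GDNF and -0.02, -0.02 and 0.04 in control. GDNF replicate 3 lay lowest of all 12, and anti-NCAM1 replicate 1 lay level with GDNF plus anti-NCAM1 replicate 2, while the other single-agent cultures lay above all cultures with both agents or neither. As a share of all counts the genes held 6.51, 6.49 and 6.52% with GDNF plus anti-NCAM1, 6.19, 6.97 and 6.49% with anti-NCAM1, 6.58, 6.45 and 5.95% with GDNF and 5.97, 6.02 and 6.49% in control, and these shares overlapped in the antibody arm and in the IgG arm.

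Leaving out GDNF replicate 3, edgeR called 14 genes (0.124%), 8 higher and 6 lower, with a smallest adjusted p of 0.0402. Among the higher ones were Sipa1l3, Crocc, Pcnx3, Zfhx3, Kmt2d, Sbf1 and Lama5, and among the lower ones Rpl36a, Snrpd1, Ssb, Rpl30 and Rps15a. The 8 higher genes had a GC content of 52.97 to 63.9%, and 12 of the 14 did not pass once the trend was removed as well. The GDNF arm under IgG rests on 2 cultures in this fit.

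With the trend on GC content and length removed and GDNF replicate 3 left out, edgeR called 21 genes (0.185%), of which 15 were lower (0.132%) and 12 of those were ribosomal proteins. In this fit 60 of the 78 ribosomal proteins (76.9%) lay below 0, against 50.0% of all genes. At an unadjusted p under 0.05, 37 (47.4%) were lower, against 4.56%, and 3 were higher, against 3.94%. These shares too are not matched for abundance or standard error. The 12 were Rpl36a, Rpl26, Rpl35, Rpl38, Rpl37a, Rpl21 and Rpl11 of the large subunit and Rps14, Rps15a, Rps6, Rps27 and Rps15 of the small one. Their interactions ran from -0.42 in Rpl26 to -0.25 in Rpl11. With all libraries and the trend kept they ran from -0.60 in Rpl36a to 0.01 in Rps14. Their GC contents ran from 45.4% in Rps15a to 62.4% in Rps15. With all libraries, removal of the trend moved Rps15 from -0.02 to -0.28 and Rpl36a from -0.60 to -0.42, so the calls depend in part on that step. Counts of ribosomal protein genes are uncertain where processed pseudogenes share their sequence.

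Rps15a, of the small subunit, had 661, 695 and 673 CPM with GDNF plus anti-NCAM1, against 733, 711 and 793 with anti-NCAM1. It had 710, 812 and 641 CPM with GDNF, against 618, 638 and 658 in control. The groups did not overlap in the antibody arm, and under IgG only replicate 3 fell within the control range. The interaction was -0.32 (SE 0.12) with all libraries and -0.33 (SE 0.06) in the refit (edgeR adjusted p = 0.00654).

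GDNF replicate 3 did not shift these genes together. Rps14 had 718 and 822 CPM in GDNF replicates 1 and 2 and 259 in replicate 3, and Rps27 had 398, 459 and 165. Rps6 had 951, 1022 and 1200 CPM in the same libraries, and Rpl35 had 716, 813 and 1103. In control Rps14 had 655 to 687 CPM, Rps27 337 to 383, Rps6 880 to 915 and Rpl35 612 to 669. The library therefore lay below control for some ribosomal proteins and above it for others, which left interactions of 0.01 (SE 0.35) for Rps14 and -0.54 (SE 0.17) for Rpl35 in the fit with all libraries.

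Messages for ribosomal proteins are known to begin with a run of pyrimidines just at the start of transcription, the 5′ terminal oligopyrimidine tract, by which growth signalling through mTOR sets their translation. The start regions of 6 of the called members are given from the RefSeq promoter table (build GRCm38.p6) to show how far a short word of that kind lies from the annotated start. They hold 60 bases before and 30 from that start, 5′ to 3′ on the gene's strand, with CTTTC in capitals. The searched motif CTTTC is a short pyrimidine run with a central T triplet.
Rpl36a (chrX:134585594-134585683, plus strand): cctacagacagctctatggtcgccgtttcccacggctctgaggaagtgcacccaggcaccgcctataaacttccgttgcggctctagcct
Rps15a (chr7:118116118-118116207, minus strand): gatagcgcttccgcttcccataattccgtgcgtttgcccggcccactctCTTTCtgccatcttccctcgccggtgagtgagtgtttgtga
Rpl26 (chr11:68901506-68901595, plus strand): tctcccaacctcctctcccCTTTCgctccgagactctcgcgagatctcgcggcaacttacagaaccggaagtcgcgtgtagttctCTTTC
Rps6 (chr4:86857338-86857427, minus strand): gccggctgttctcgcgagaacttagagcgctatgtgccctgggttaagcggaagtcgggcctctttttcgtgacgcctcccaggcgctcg
Rps27 (chr3:90213619-90213708, minus strand): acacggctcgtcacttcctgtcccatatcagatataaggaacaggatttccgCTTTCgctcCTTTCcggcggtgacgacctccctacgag
Rpl35 (chr2:39005102-39005191, minus strand): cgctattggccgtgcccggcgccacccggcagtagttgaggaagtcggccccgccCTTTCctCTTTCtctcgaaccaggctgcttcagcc
Counted to its first base, the motif lay 8 bases before and 1 base after the annotated start base in Rps27, and 5 before and 2 after in Rpl35. It lay 11 bases before in Rps15a, and 41 before and 25 after in Rpl26, and was not in the stretch shown of Rpl36a and Rps6. From the annotated start base Rps6 reads ctctttttc and Rps15a cttccctc, pyrimidine runs that CTTTC does not match, while Rpl36a and Rpl26 begin with g and a. The stretches thus do not share 1 position of CTTTC, but the word misses runs spelled otherwise and so does not locate the tract.

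In the 300-base windows of that table, CTTTC was found on the gene's own strand in 38 of the 58 tested ribosomal protein genes with an entry (65.5%), against 2726 of the 8656 tested genes with one (31.5%) and 34.5% of the whole table. On either strand the shares were 82.8%, 52.0% and 57.1%. Of the 12 called genes 10 had an entry, and 7 of those held the motif (70.0%). A match describes these letters only, and says nothing of a factor or of the response to GDNF.

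The 9 other genes called in that refit were 6 higher and 3 lower. The lower ones were Naca, part of a complex that binds nascent chains at the ribosome, at -0.35 (SE 0.07), Tmsb10, an actin-binding thymosin, at -0.40 (SE 0.09), and Stx8, a syntaxin of endosomes, at -0.81 (SE 0.18). Among the higher ones were Nfat5, the transcription factor of the response to osmotic stress, at 0.30 (SE 0.07) and its known target Slc5a3, a carrier that takes up inositol, at 0.44 (SE 0.10). Slc5a3 had 115, 128 and 120 CPM with GDNF plus anti-NCAM1, against 107, 109 and 105 with anti-NCAM1. It had 105, 88.7 and 83.5 CPM with GDNF, against 109, 106 and 118 in control, so that its groups did not overlap in either arm. Nfat5 had 217, 245 and 321 CPM with GDNF, overlapping 259, 274 and 230 in control, and its interaction with all libraries was 0.09. The others were mt-Nd6 at 0.73 (SE 0.13), Amn1 at 1.03 (SE 0.22), Tspo, a protein of the outer mitochondrial membrane, at 0.36 (SE 0.08), and 1 gene ID without a symbol. With all libraries and the trend kept, mt-Nd6 was at 0.28, Amn1 at 0.92 and Tspo at 0.81. Tspo had 98.3, 82.2 and 32.6 CPM with GDNF, against 108, 114 and 109 in control.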

How the data were processed

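RNA-seq counts per gene were deposited by the authors as 1 table of whole numbers for 12 libraries, unscaled. Tools listed in the submitters' processing notes are FastQC, MultiQC and kallisto 0.46.2, beside the builds GRCm39 and mm10, with no role for any. The treatment of multiply matching reads and of strand is not given in the sources used here. A symbol was matched to 52081 of 55414 IDs; the others held 6.55% of counts. The filterByExpr function of edgeR, at a minimum count of 10 and a total of 15, left 11332 genes, which were scaled by TMM and fitted with edgeR 4.0.16 (R 4.3.3) by the quasi-likelihood F test over 4 groups of 3, with no covariate, 2-sided. P-values were adjusted by Benjamini-Hochberg over all tested genes and called at 0.05. CPM of genes given by group use the TMM library sizes, and log2 CPM a prior count of 2. The value of 3 counts, the ranges of cell type markers, the list sums and the pooled Gfra1 and Ret use the raw library totals. GC content and length came from GENCODE M21 transcripts, and each library's trend was fitted by lowess (span 0.3).

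The naming rule took 12 genes in each direction by unadjusted p, leaving out predicted genes, 6 genes of GDNF and NCAM1 signalling, and 2 members with the smallest p for each list described; a few genes that it or a refit names are not reported here. The ribosomal proteins and other genes called only in refits were named after their values were seen, as were the motif and the promoters. Members, lists, rule and tests were chosen with earlier results of these data known. A total of 33 lists were used, 29 with at least 5 tested members. DESeq2 1.42.0 and limma-voom (limma 3.58.1), other scalings and filters, the replicate block, robust estimation, removal of the GC and length trend, and leaving out each library were alternatives; the count of separated genes without GDNF replicate 3 was added after seeing the data. The fits were first tested on simulated data. Unlike these libraries, the simulated ones had the same dispersion for every gene, no slope on GC content and no library standing apart.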

Additional observations from a re-analysis of the deposited data

Results flagged for a closer look

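The level of the axon guidance genes, semaphorins, plexins, ephrins, netrins and their receptors, was higher in every culture with GDNF than in every culture without it in the antibody arm, and lower in the IgG arm. As mean log2 CPM of 19 genes minus the control mean, it was -0.05, -0.09 and -0.11 with GDNF plus anti-NCAM1, above -0.20, -0.12 and -0.20 with anti-NCAM1. It was -0.03, -0.27 and -0.43 with GDNF, below -0.01, 0.02 and -0.00 in control. The difference between the 2 GDNF effects on this level was 0.33 and was not itself tested; no member passed in edgeR, 18 of 19 had an interaction above 0, and the list's median GC content is 56.9%. The list's median interaction of 0.36 was 0.23 without GDNF replicate 3, 0.07 with the GC and length trend removed and 0.03 with both. The gap in the antibody arm between the lowest library with both agents and the highest with the antibody was small, as was that in the IgG arm.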

How the results depend on the processing

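The count of interactions past the threshold was 0 with all 12 libraries and under every alternative other than these: 2425 with limma-voom sample quality weights (1243 higher, 1182 lower), 403 with no low-count filter (22404 genes tested), and 21 with the GC and length trend removed and GDNF replicate 3 left out. The weights given were 0.380, 2.97 and 0.137 for the 3 GDNF libraries. Leaving out 1 library at a time gave 0 to 1887 calls, with 1887 without GDNF replicate 1, 14 without GDNF replicate 3 and 0 otherwise; between these 2 refits 12 genes were shared. The GDNF effect with IgG gave 31 calls in DESeq2 with independent filtering (adjusted over 1885 genes), 2614 with quality weights, 736 with no filter, 1 with the trend removed and GDNF replicate 3 left out, and 0 to 2714 without single libraries (2714 without GDNF replicate 1). The GDNF effect with anti-NCAM1 gave 7 with quality weights, 4 with no filter and 0 to 0 without single libraries. The causes were not tested. With the replicate number as a block the interaction had 0 calls (1892 at an unadjusted p under 0.05), also with the trend removed; same-numbered libraries' deviations correlated at -0.147 to 0.101 over 18 pairs, 1 of them over 0.1, so the numbers are not taken to pair the cultures. Among named genes the interaction reversed for Ncam1 (-0.19 with quality weights, -0.0014 with the block and trend removed, -0.12 without GDNF replicate 1, and -0.20 to 0.21 over single libraries) and for Fyn (0.081 with quality weights, 0.0079 with upper-quartile scaling, 0.083 with the trend removed and GDNF replicate 3 left out, and -0.070 to 0.079 over single libraries). With 3 libraries a group and a median standard error of 0.18, an interaction that did not pass is not shown to be absent.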
